A study of Homo sapiens with 6 samples.

Results

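The genes described here were 10 genes by which the position of a carcinoma cell between the epithelial and the mesenchymal state is commonly read: CDH1, CDH2, EPCAM, VIM, FN1, ZEB1, ZEB2, SNAI1, SNAI2 and TWIST1. They were selected by their gene symbols, and all 10 were found among the 58735 genes of the deposited table. The samples were 6 cultures of PANC-1, an established human cell line derived from a pancreatic ductal adenocarcinoma. Of these biological replicates, 3 received control siRNA (si-NC) and 3 received siRNA against METTL16 (si-METTL16), an RNA methyltransferase that places N6-methyladenosine. One label of the control samples calls them WT, whereas their titles name the control siRNA. Libraries were made with a SMARTER mRNA-Seq kit from bulk RNA, so for every gene below fewer cells of a type and less RNA per cell cannot be told apart. The groups shared the cell line and differed, as far as the labels go, only in the siRNA, and the time from transfection to harvest was not given. For sequencing, the study's methods call the transfection stable, whereas elsewhere they name shRNA and, for growth assays, transient siRNA.

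In the epithelial state, cells are held together by E-cadherin (the product of CDH1) at adherens junctions, with tight junctions and desmosomes beside them. In the epithelial-mesenchymal transition (EMT), transcription factors of the SNAI, ZEB and TWIST families repress CDH1 and other junction genes, and genes such as CDH2, VIM and FN1 are used instead. Many carcinoma cells express genes of both states at the same time, which is called a hybrid or partial state. ZEB1 and ZEB2 are in turn repressed by the microRNAs of the miR-200 family, and these factors repress the miR-200 genes.

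Because the SNAI and ZEB proteins bind the E-box CAGGTG, whose reverse complement is CACCTG, the promoters from 250 bases before to 50 bases after the transcription start were searched for these letters on both strands. The promoter sequences were those of RefSeq on GRCh38.p14. Of all 35116 promoters of this length, 20.6% held at least 1 E-box, 3.49% at least 2 and 0.635% at least 3. Promoter entries were matched for 5 of the 10 genes, namely CDH2, VIM, FN1, ZEB1 and ZEB2, at the start of the MANE Select transcript. No entry was found under the symbols CDH1, EPCAM, SNAI1, SNAI2 and TWIST1, so their promoters were not searched. The promoters of CDH2, VIM, FN1 and ZEB2 held 0 E-boxes and that of ZEB1 held 3. Shown here, 5′ to 3′ on the strand of the gene with each E-box in capitals, are CDH2 (chr18:28177081-28177380, minus strand), which rose after silencing, ZEB1 (chr10:31318966-31319265, plus strand), the only one of the 5 with a match, and CLDN7 (chr17:7262429-7262728, minus strand), a tight junction claudin that fell and that was chosen for display after its values and its 5 matches were seen.
CDH2: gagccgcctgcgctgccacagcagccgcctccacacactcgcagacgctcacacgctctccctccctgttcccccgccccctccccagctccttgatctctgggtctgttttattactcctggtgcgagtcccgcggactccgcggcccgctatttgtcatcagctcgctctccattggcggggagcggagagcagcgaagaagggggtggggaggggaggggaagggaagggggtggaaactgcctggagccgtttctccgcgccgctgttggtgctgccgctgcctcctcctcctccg
ZEB1: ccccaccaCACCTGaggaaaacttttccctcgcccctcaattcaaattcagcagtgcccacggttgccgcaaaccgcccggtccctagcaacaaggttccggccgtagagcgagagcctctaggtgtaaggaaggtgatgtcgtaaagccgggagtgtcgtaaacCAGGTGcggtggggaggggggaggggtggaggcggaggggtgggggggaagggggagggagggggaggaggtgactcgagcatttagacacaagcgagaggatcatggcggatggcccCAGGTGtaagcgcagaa
CLDN7: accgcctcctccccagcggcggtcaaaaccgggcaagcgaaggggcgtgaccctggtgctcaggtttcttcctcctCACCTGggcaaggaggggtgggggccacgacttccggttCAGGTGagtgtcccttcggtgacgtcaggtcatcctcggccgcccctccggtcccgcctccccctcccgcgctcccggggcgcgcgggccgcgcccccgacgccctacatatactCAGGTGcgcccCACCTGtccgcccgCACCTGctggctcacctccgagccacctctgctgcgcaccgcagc
The first base of the matches in the ZEB1 promoter lay at -242, -85 and 33 from the start site. A match is only a match of letters, and no binding was measured in these samples.

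The mature miR-200 microRNAs fall into a pair of groups by their seed, bases 2 to 8, printed here in capitals from the RefSeq table of GRCh38.p14. The seed AAUACUG is shared by 3 of them and the seed AACACUG by the other two.
hsa-miR-200b-3p: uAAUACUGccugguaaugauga
hsa-miR-200c-3p: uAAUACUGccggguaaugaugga
hsa-miR-429: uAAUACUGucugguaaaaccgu
hsa-miR-200a-3p: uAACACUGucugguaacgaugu
hsa-miR-141-3p: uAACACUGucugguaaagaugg
The letters complementary to these seeds are CAGTATT and CAGTGTT. In the 3′ UTR of the ZEB1 MANE Select transcript (2540 bases, GENCODE v44), CAGTATT occurred 6 times and CAGTGTT 3 times. Of 2546 3′ UTRs of 0.8 to 1.25 times that length, that of ZEB1 included, 27.2% held CAGTATT at least once. Only that of ZEB1 itself (0.0393%) held it 6 times. CAGTGTT occurred at least as often as in ZEB1 in 0.668% of them. The ZEB2 3′ UTR (5370 bases) held CAGTATT 5 times and CAGTGTT 4 times. Of 1209 3′ UTRs of like length, that of ZEB2 included, only that of ZEB2 itself (0.0827%) held CAGTATT as often. CAGTGTT occurred at least as often as in ZEB2 in 1.24% of them. The first site of each kind after the stop codon is shown with its flanking bases, with the seed match in capitals. The letters are those of the strand of the gene, plus for ZEB1 and minus for ZEB2.
ZEB1, chr10:31527619-31527640: ttgttttatcttatCAGTATTa
ZEB1, chr10:31528032-31528053: aaaatcatcagaatCAGTGTTt
ZEB2, chr2:144389052-144389073: gcactaccatacatCAGTATTt
ZEB2, chr2:144389236-144389257: gcaaaaattttgtaCAGTGTTa
Mature microRNAs were not measured. Of the 7 genes that carry the miR-200 family and the related miR-205, 5 had 0 counts in all 6 samples, and MIR429 and MIR200C had 1 count each over all samples.

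The deposited counts summed to between 15725298 and 18054436 per sample, and 3 counts, the limit that a count of 0 allows, stood for 0.166 to 0.191 CPM, counts relative to the size of the library. METTL16 had 1546, 1641 and 1764 counts in the control samples, given here and below in the order of replicates 1, 2 and 3, and 571, 528 and 627 in the silenced samples. After silencing it stood at 35.9% of the control level (log2 fold change -1.48, SE 0.07).

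CDH1 fell after METTL16 silencing, and CDH2 and SNAI2 rose. VIM, ZEB1, ZEB2, SNAI1 and EPCAM did not pass the test, FN1 was too low to be tested and TWIST1 was not detected. The test was edgeR's quasi-likelihood test on TMM-scaled counts, with Benjamini-Hochberg adjustment over the 15089 genes that passed the filter on low counts and a threshold of 0.05. Of the 8 tested genes, 3 were called (37.5%), against 35.9% of all tested genes, so the share of the 10 genes that moved was near that of any genes. For the separate directions, 2 of the 8 were higher, against 18.4% of all tested genes, and 1 was lower, against 17.5%. CDH1 and SNAI2 were called with at least a 2-fold change, 2 of the 8, against 7.77% of all tested genes. The groups did not overlap in CPM for 4 of the 8 genes (CDH1, CDH2, SNAI1 and SNAI2), against 50.9% of all tested genes.

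**Figure D1:**
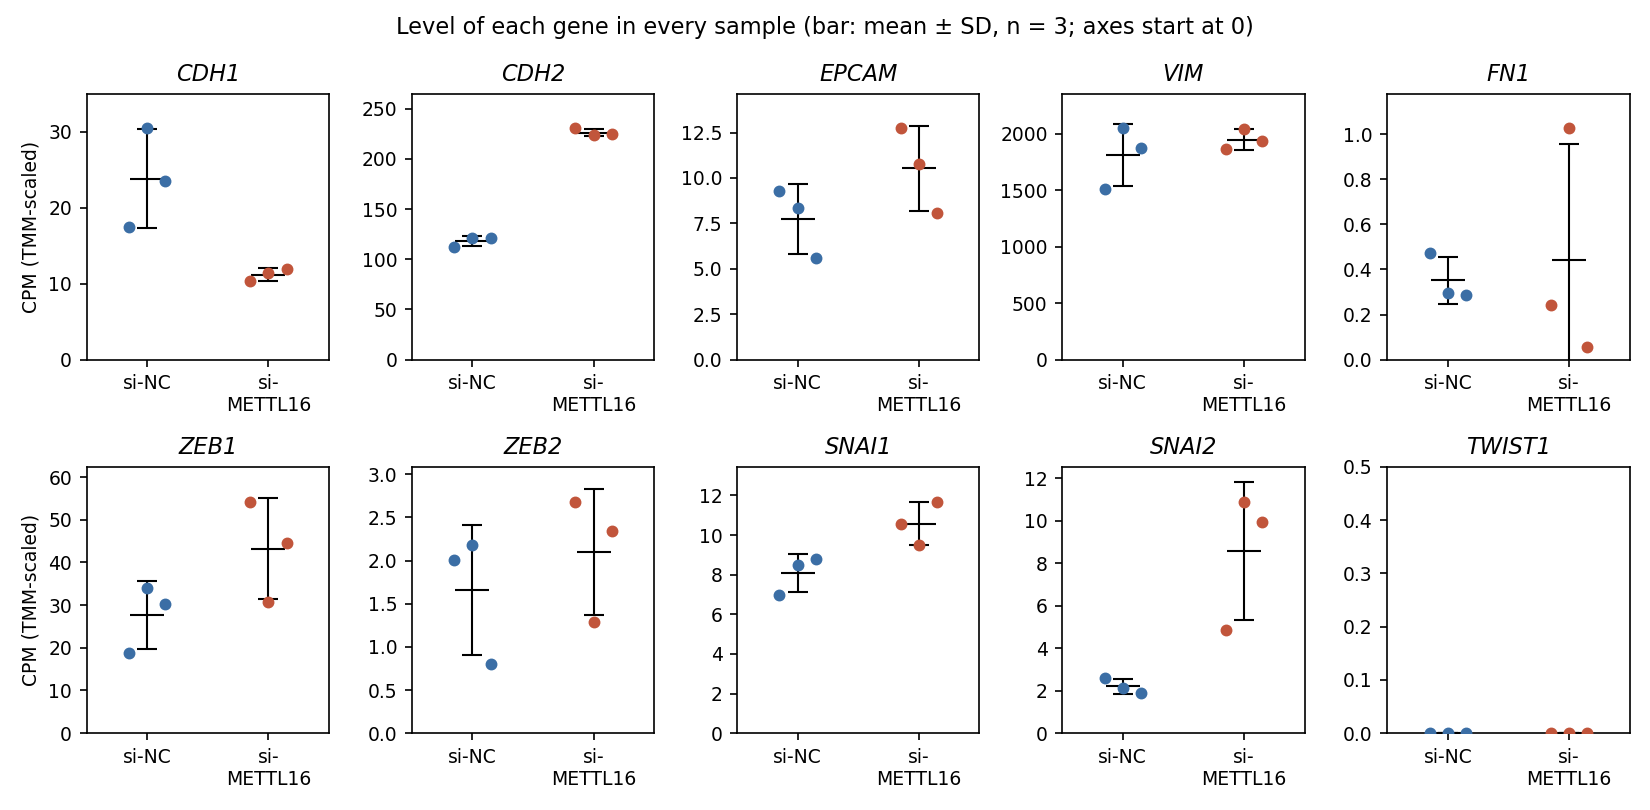
Level of each of the 10 genes in every sample, in CPM after TMM scaling (vertical axes from 0, a different scale for each gene), for si-NC (blue) and si-METTL16 (red). Points are samples, and bars give the mean and SD of 3 samples; the bar of FN1 is cut at 0. The si-METTL16 points of CDH2 and SNAI2 lie above all si-NC points and those of CDH1 below, whereas the points of VIM, ZEB1, ZEB2 and EPCAM overlap.

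E-cadherin and N-cadherin, the products of CDH1 and CDH2, are the classical cadherins of epithelial and of mesenchymal or neural cells. CDH1 (chromosome 16, 68737225 to 68835548, plus strand, GRCh38 coordinates of the deposited table) had 294, 517 and 413 counts in si-NC and 169, 178 and 214 in si-METTL16. In CPM these were 17.4, 30.5 and 23.6 against 10.3, 11.4 and 11.9, so every silenced sample was below every control sample and the controls varied more than the silenced samples (23.8 ± 6.54 against 11.2 ± 0.82, SD, n = 3). CDH1 fell by 1.09 on the log2 scale (SE 0.20, edgeR adjusted p = 0.0059), to 0.471 of the control level with a 95% interval of 0.339 to 0.655. On the log2(FPKM + 1) scale, where the added 1 shrinks changes of low genes, limma gave -0.57, also past the threshold.

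CDH2 (chromosome 18, 27950966 to 28177446, minus strand) had 1905, 2052 and 2129 counts in si-NC and 3785, 3486 and 4038 in si-METTL16. Its CPM was 113, 121 and 121 against 231, 224 and 225, the tightest pair of groups among the 10 genes. The rise was 1.91-fold (95% interval 1.75 to 2.09; log2 fold change 0.93, SE 0.06, edgeR adjusted p = 0.00011).

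EPCAM encodes an adhesion molecule of epithelial cells that is widely used to sort carcinoma cells. It is located on chromosome 2 (47345158 to 47387601, plus strand) and had 157, 142 and 98 counts in si-NC and 209, 168 and 145 in si-METTL16. The groups overlapped, since si-METTL16 replicate 3 (8.07 CPM) was below si-NC replicates 1 and 2 (9.29 and 8.37 CPM). The log2 fold change was 0.44 with a 95% interval of -0.12 to 1.01 (edgeR adjusted p = 0.19), so a fall of EPCAM as large as that of CDH1 lay outside the interval.

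Vimentin, the intermediate filament protein of mesenchymal cells, is encoded by VIM (chromosome 10, 17228259 to 17237593, plus strand). It had 25477, 34749 and 32891 counts in si-NC and 30540, 31889 and 34699 in si-METTL16. In CPM, VIM was at 1508, 2048 and 1876 against 1861, 2045 and 1930, with all silenced samples inside the range of the controls. Its log2 fold change of 0.10 had a 95% interval of -0.15 to 0.36 (edgeR adjusted p = 0.49), and without si-NC replicate 1, the lowest sample, it was -0.02.

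FN1 encodes fibronectin, a matrix protein that rises in many models of EMT. It was nearly silent in these cells, with 8, 5 and 5 counts in si-NC and 4, 16 and 1 in si-METTL16. These counts were too few for the filter, and the highest and the lowest sample were both in the si-METTL16 group.

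ZEB1 (chromosome 10, 31318495 to 31529814, plus strand), a zinc finger repressor of CDH1, had 316, 577 and 531 counts in si-NC and 890, 479 and 801 in si-METTL16. Its CPM was 18.7, 34.0 and 30.3 against 54.2, 30.7 and 44.6, and si-METTL16 replicate 2 lay inside the control range. The log2 fold change of 0.64 (SE 0.27, 95% interval 0.01 to 1.27) did not pass edgeR's test (adjusted p = 0.10), whereas the Wald test of DESeq2 called it (0.64, adjusted p = 0.038). ZEB2, its homologue on chromosome 2, had 34, 37 and 14 counts against 44, 20 and 42, and its interval ran from -0.69 to 1.37 around 0.34 (edgeR adjusted p = 0.58). At these counts a doubling of ZEB2 was within the interval.

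SNAI1 (chromosome 20, 49982999 to 49988886, plus strand) encodes Snail, a zinc finger repressor of CDH1 whose protein is short-lived. It had 118, 144 and 154 counts in si-NC and 173, 148 and 210 in si-METTL16, or 6.98, 8.49 and 8.78 CPM against 10.5, 9.49 and 11.7 CPM. The silenced samples were all above the controls, but the log2 fold change of 0.39 (SE 0.15) was not past the threshold (edgeR adjusted p = 0.077).

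SNAI2 encodes Slug, a relative of Snail that binds the same E-box, and lies on chromosome 8 (48917604 to 48921740, minus strand). It had 44, 36 and 33 counts in si-NC and 80, 170 and 179 in si-METTL16, or 2.60, 2.12 and 1.88 CPM against 4.88, 10.9 and 9.96 CPM. All silenced samples were above all controls, with replicate 1 well below the other two. The fitted change was 3.89-fold with a wide 95% interval of 2.28 to 6.64 (log2 fold change 1.96, SE 0.33, edgeR adjusted p = 0.0038). It was the largest fold change among the 8 tested genes. TWIST1, a helix-loop-helix factor of the mesoderm, had 0 counts in all 6 samples, which allows up to 0.191 CPM in the shallowest of them.

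**Figure D2:**
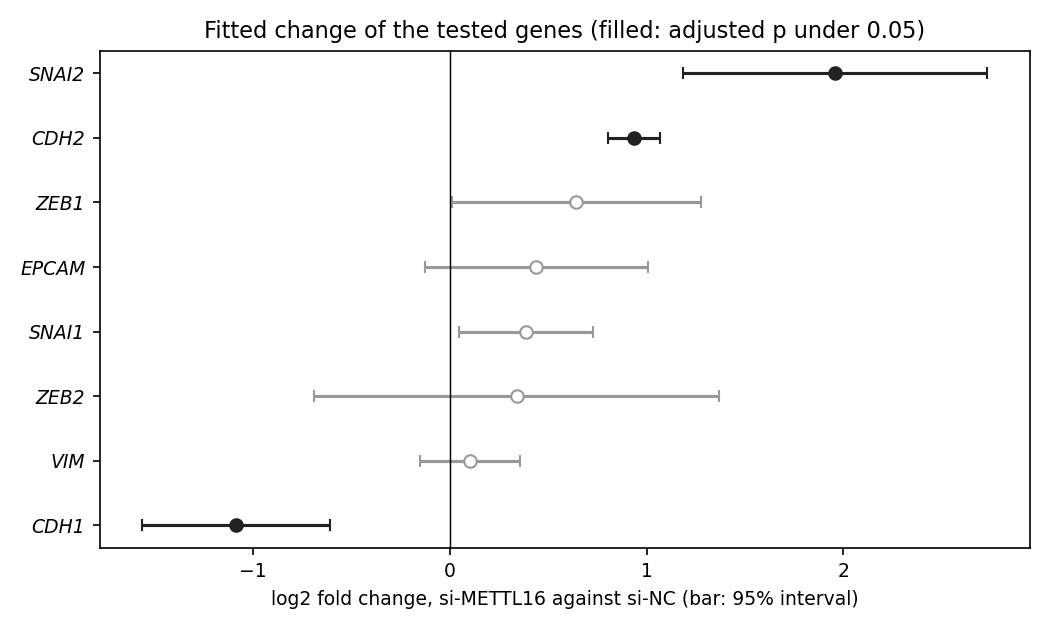
Log2 fold change of si-METTL16 against si-NC for the 8 tested genes, from edgeR, with 95% intervals as bars. Filled points had an adjusted p under 0.05: SNAI2 at 1.96 and CDH2 at 0.93 lie to the right of 0, CDH1 at -1.09 to the left, and the intervals of EPCAM, ZEB2 and VIM cross 0.

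Within a sample, the levels of different genes were compared per length. In the deposited FPKM, the si-NC order ran from VIM (184) over CDH2 (18.6) and SNAI1 (4.82) to EPCAM (1.82), CDH1 (1.66) and ZEB1 (1.39), then SNAI2 (0.302), ZEB2 (0.0315) and FN1 (0.0115), with TWIST1 at 0. The ranges of EPCAM and CDH1, of CDH1 and ZEB1 and of ZEB2 and FN1 overlapped, and the other neighbours were separated. In si-METTL16, CDH1 (0.768) stood 7th of the 10, below SNAI2 (1.16), although their ranges overlapped. With the ratio taken within each sample and averaged on the log2 scale, CDH2 in FPKM was 11.5 times CDH1 in control cells and 45.7 times in silenced cells.

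The length behind these FPKM values was not the same kind of length for every gene. The length that count and FPKM imply was 1686 bases for SNAI1, close to its MANE Select transcript of 1705 bases, but 9896 bases for VIM, more than the 9335 bases its locus spans, and 7346 bases for SNAI2, whose locus spans 4137. Levels were therefore also computed as CPM per kilobase of the MANE Select transcript, a scale chosen after the data were seen. On it VIM (841) and CDH2 (29.5) were again highest in si-NC, and EPCAM (5.01), CDH1 (4.95), SNAI1 (4.74) and ZEB1 (4.66) could not be separated. The lead of SNAI1 over EPCAM, CDH1 and ZEB1 was thus not seen on this scale. In si-METTL16 the order of these genes on this scale was ZEB1 (7.27), EPCAM (6.80), SNAI1 (6.20), SNAI2 (3.93) and CDH1 (2.33), where ZEB1 and EPCAM, EPCAM and SNAI1, and SNAI2 and CDH1 overlapped. Per kilobase of these transcripts, and averaged in the same way, CDH2 stood at 6.11 times CDH1 in si-NC and 24.2 times in si-METTL16. Changes of one gene between samples do not depend on the choice of length.

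**Figure D3:**
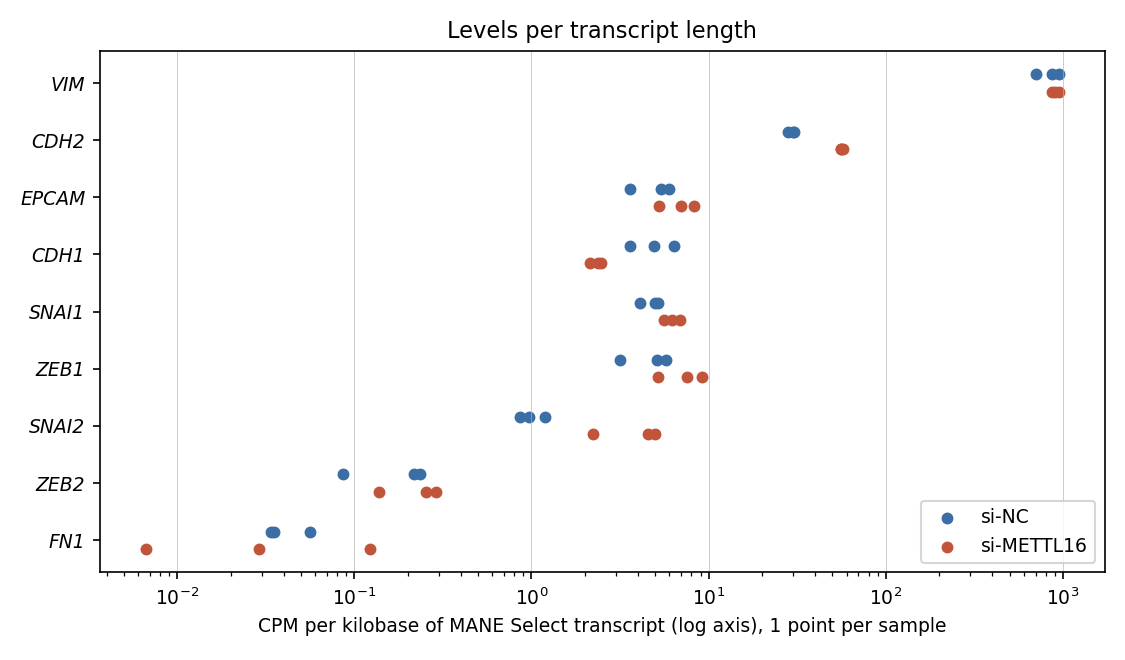
CPM per kilobase of MANE Select transcript on a log axis, 1 point per sample, si-NC in blue and si-METTL16 in red; TWIST1, at 0, is not drawn. VIM lies highest, followed by CDH2; EPCAM, CDH1, SNAI1 and ZEB1 lie together near 5 in si-NC, and CDH1 is the one of these 4 that is lower in si-METTL16.

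The ratio of a pair of genes within each sample does not depend on the scaling between samples. The log2 FPKM ratio of CDH1 to CDH2 was -3.87, -3.17 and -3.54 in si-NC and -5.66, -5.47 and -5.41 in si-METTL16. Its mean was -3.53 ± 0.35 against -5.52 ± 0.13 (SD, n = 3), a difference of -1.99 with no overlap of the groups. CDH1 to VIM differed by -1.17 (from -6.82 ± 0.19 to -7.99 ± 0.09), and CDH1 to ZEB1 by -1.70 (from 0.26 ± 0.14 to -1.44 ± 0.48), again without overlap. CDH1 was thus above ZEB1 in each control sample and below it in each silenced sample in FPKM, whereas per MANE Select length si-NC replicate 3 was already at -0.06. The ratio of ZEB1 to ZEB2 overlapped between the groups, at 5.55 ± 1.03 and 5.80 ± 0.17, and the difference of 0.25 became -0.21 without si-NC replicate 1. These ratios were given no test of their own. The fit tested single genes and not ratios, and it called neither VIM nor ZEB1. The fall of CDH1 (log2 fold change -1.09) enters each of the CDH1 ratios, so they are not separate results.

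**Figure D4:**
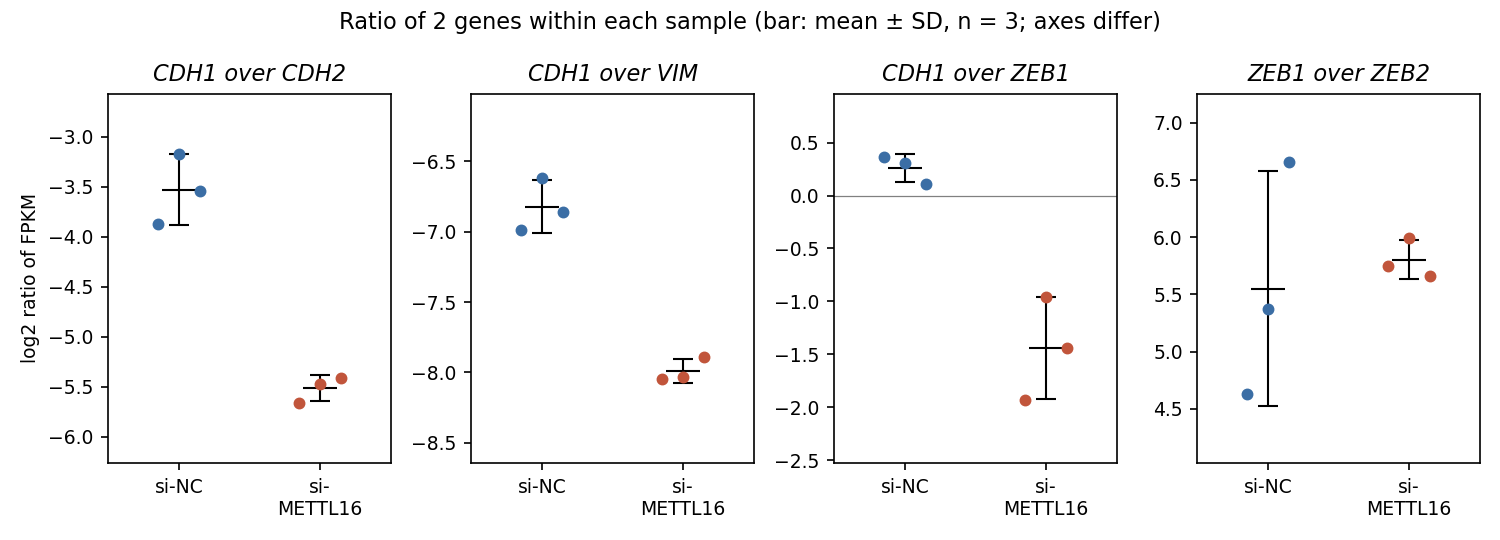
Log2 ratio of FPKM of 2 genes within each sample for si-NC (blue) and si-METTL16 (red), with the mean and SD of 3 samples; the axes differ. The si-METTL16 points lie below all si-NC points for CDH1 over CDH2, CDH1 over VIM and CDH1 over ZEB1, and inside the si-NC range for ZEB1 over ZEB2.

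Epithelial and mesenchymal genes beyond the 10 were read from lists written from general knowledge. All lists were chosen with earlier results of these data known, so their called shares may not be independent of these data. Of 23 tested junction genes, 4 were higher and 11 lower after silencing (65.2% called, against 35.9% of all tested genes), with a median log2 fold change of -0.29 against -0.0045 for all genes. TJP3, the tight junction scaffold ZO-3, fell by 2.34 on the log2 scale, from 8.50 ± 0.99 to 1.66 ± 0.50 CPM (SD, n = 3). The polarity gene PARD6B fell by 0.85, CLDN7 by 0.77 and JUP, which encodes plakoglobin of desmosomes and adherens junctions, by 0.59. Against this direction, the claudin gene CLDN1 rose from 30.8 ± 2.80 to 65.0 ± 4.77 CPM (log2 fold change 1.08), and OCLN, encoding occludin, rose by 0.60 and the desmosomal cadherin DSG2 by 0.27. F11R, which encodes junctional adhesion molecule A, was not called (-0.13). Without si-NC replicate 3 the test called 9 junction genes, 2 higher and 7 lower. JUP was not called without si-NC replicate 1 or 3 or si-METTL16 replicate 1 or 2, nor DSG2 without si-NC replicate 1 or 3 or si-METTL16 replicate 2 or 3. Of the junction genes with a promoter entry, an E-box was found in 3 of the 6 that fell, 2 of the 4 that rose and 2 of the 5 not called. It was also found in 2 of the 2 not tested. Among all promoters the share was 20.6%.

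The catenins and actin linkers that join cadherins to the cytoskeleton moved in both directions: 2 of 6 were higher, 3 lower and 1 not called (83.3% called, against 35.9% of all tested genes). CTNND1, the p120 catenin that keeps cadherins at the membrane, fell from 439 ± 17.5 to 252 ± 29.6 CPM (-0.80 on the log2 scale), and CTNNA1, α-catenin, fell by 0.40. LIMA1, an actin-binding partner, fell by 0.38. VCL, encoding vinculin, rose by 0.40 and AFDN, encoding afadin, by 0.20, a call that held only without si-METTL16 replicate 3 among the 6 fits that leave out a sample and in 4 of all 15 alternatives. CTNNB1, β-catenin, was not called, with 336 ± 5.26 against 337 ± 19.5 CPM; it and LIMA1 are named after their values were seen.

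Among 15 epithelial regulators, 9 could be tested, and 1 was higher, 1 lower and 7 were not called (22.2% called, against 35.9%). GRHL3, a grainyhead factor of epithelia, fell from 164 ± 4.57 to 95.6 ± 6.32 CPM (log2 fold change -0.78). KLF5, a Krüppel-like factor, rose from 3.45 ± 1.06 to 6.84 ± 0.77 CPM (0.98), a call that was lost without si-METTL16 replicate 1 and without si-METTL16 replicate 2. ELF3 (0.12) and FOXA2 (-0.04) were not called. GRHL2 had 0 counts in all samples. The other regulators that could not be tested had few counts over all samples, with 1 for OVOL1, 5 for ELF5, 14 for OVOL2, 30 for EHF and 34 for ESRP1. These untested genes are named after their values were seen.

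Of 36 tested mesenchymal genes, 14 were higher, 6 lower and 16 not called (55.6% called, against 35.9%), and the median log2 fold change was 0.14. The smooth muscle gene CNN1 rose by 2.06 on the log2 scale from a low level (0.62 ± 0.39 to 2.63 ± 0.72 CPM), a call lost without si-METTL16 replicate 2. THBS1, encoding the matrix protein thrombospondin-1, rose from 47.5 ± 2.82 to 126 ± 9.35 CPM (1.41), and CCN1, a matricellular protein gene, from 434 ± 2.69 to 957 ± 88.6 CPM (1.14). COL6A1 fell by 1.47 and SPARC by 1.23, both encoding matrix proteins. LGALS1, encoding galectin-1, was not called (0.02). This list thus held genes past the threshold in both directions, as the junction list did. Over all tested genes, 18.4% were called higher and 17.5% lower. Higher and lower calls were 14 and 6 of 36 here, and 4 and 11 of 23 in the junction list.

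**Figure D5:**
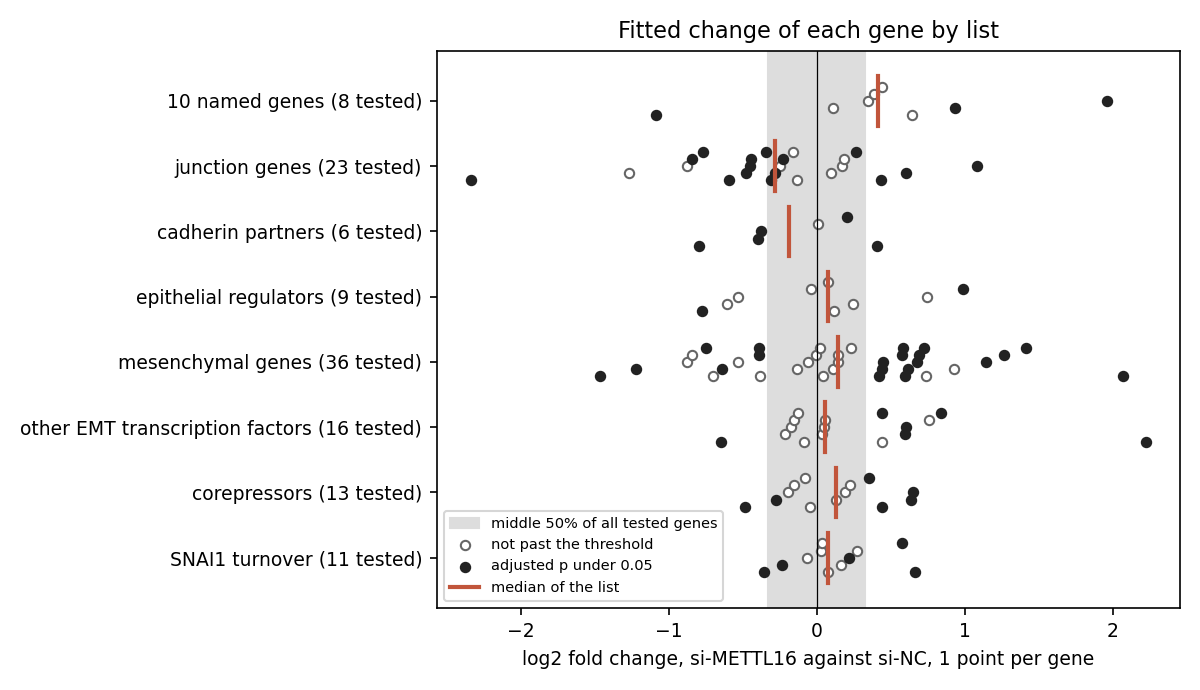
Log2 fold change of si-METTL16 against si-NC for each tested gene, by list, with filled points for adjusted p under 0.05, open points for the rest and a red line at the median of each list; the grey band holds the middle 50% of all tested genes, from -0.33 to 0.32. The median lies at -0.29 for junction genes, 0.14 for mesenchymal genes and 0.05 for the other EMT transcription factors, all inside the band, and at 0.41 for the tested 8 of the 10 genes. The band is the spread of single genes and does not measure how far the median of a list would vary.

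Among 16 other EMT transcription factors, 5 were higher, 1 lower and 10 not called (37.5% called, against 35.9%), with a median of 0.05. TBX2, a T-box factor, rose from 1.58 ± 0.44 to 7.39 ± 0.91 CPM (log2 fold change 2.22), and ETS1 from 121 ± 7.41 to 216 ± 13.6 CPM (0.84). FOXQ1, a forkhead factor, fell by 0.65 and was not called without si-NC replicate 1 or 2 or si-METTL16 replicate 2 or 3, so that none of these 4 fits had a lower call in the list. The abundant SOX4 (0.06) and HMGA2 (-0.13) were not called.

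The SNAI and ZEB proteins repress through corepressors, of which 4 of 13 were higher, 2 lower and 7 not called (46.2% called, against 35.9%). EZH2, the methyltransferase of Polycomb complex 2, rose by 0.65 and SUZ12, another subunit of that complex, fell by 0.28, a call lost without si-NC replicate 2 or 3 or si-METTL16 replicate 1 or 2. The histone deacetylase genes also parted, with HDAC1 rising by 0.64 (188 ± 16.1 to 292 ± 8.31 CPM) and HDAC2 falling by 0.49 (362 ± 9.91 to 259 ± 12.4 CPM). BMI1, of Polycomb complex 1, rose by 0.35, and KDM1A, the demethylase LSD1, was not called (0.13).

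Of 11 genes known to act on the stability of the SNAI1 protein, 3 were higher, 2 lower and 6 not called (45.5% called, against 35.9%). The kinase gene LATS2 rose by 0.66, the ubiquitin ligase gene FBXO45 by 0.57 and COPS5, a COP9 signalosome subunit, by 0.21. The F-box genes FBXL5 and BTRC fell by 0.36 and 0.24, and FBXO11 (0.07) and the kinase gene GSK3B (0.03) were not called. This count rested on single samples, since 2 genes were called without si-NC replicate 1 and 2 without si-NC replicate 3, and 3 without si-NC replicate 2, without si-METTL16 replicate 1 or without si-METTL16 replicate 2. COPS5 was called in 1 of the 6 fits that leave out a sample (that without si-METTL16 replicate 3) and BTRC also in 1 (that without si-NC replicate 3). FBXL5 was not called without si-NC replicate 1 or 3, nor LATS2 without si-NC replicate 3.

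ZEB1 and VIM have antisense neighbours that share exon bases with them, and the use of strand in counting was not given in the sources used here, so their reads could not be told apart. ZEB1-AS1 (396 shared exon bases) had 16, 20 and 30 counts in si-NC and 52, 63 and 46 in si-METTL16, a log2 fold change of 1.34 (SE 0.30, edgeR adjusted p = 0.013). VIM-AS1 (656 shared bases) had 31, 38 and 35 counts against 67, 71 and 77 (1.09, SE 0.18, edgeR adjusted p = 0.0039). Both were called, and both held few reads beside ZEB1 (227 against 3594 counts over all samples) and VIM (319 against 190245). SNAI3-AS1 was not called (-0.53).

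The epithelial label of the line was checked with 8 duct-type markers. KRT8 and KRT18, the keratins of simple epithelia, were abundant in all samples, at 1696 to 2498 and 961 to 1361 CPM, and were not called. Of the 7 markers tested, 4 were lower and 3 not called (57.1% called, against 35.9% of all tested genes), the lower ones being CDH1, KRT19 (-1.40), KRT7 (-0.84) and SOX9 (-0.25). The summed level of these markers was 3056 to 4131 CPM in si-NC and 3276 to 3578 CPM in si-METTL16. Most of this sum was KRT8 and KRT18, so it says little about the 4 lower markers.

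Of 7 fibroblast markers, 2 could be tested and both rose, COL1A1 (340 ± 28.9 to 818 ± 19.6 CPM) and COL3A1 (8.98 ± 0.98 to 14.4 ± 1.39 CPM). Their list summed to 331 to 383 CPM in si-NC and 816 to 856 CPM in si-METTL16, nearly all of it COL1A1, which the list of mesenchymal genes also holds. The other 5 were at or near 0 in both groups, with DCN at no more than 2 counts, COL1A2 at no more than 1, PDGFRA at no more than 3, PDGFRB at no more than 7 and LUM at no more than 8 counts in a sample. Of 5 leukocyte markers, CD68, also a lysosomal protein gene of other cells, was the one tested and rose by 0.67, while PTPRC had no more than 5 counts in a sample and CD3E had 0. The list summed to 5.74 to 5.83 CPM in si-NC and 7.79 to 9.45 CPM in si-METTL16. The 4 endothelial markers summed to between 0.183 and 0.913 CPM, the 4 acinar markers to at most 0.178 CPM and the 3 islet markers to at most 0.296 CPM, and none of these could be tested.

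The genes whose profile over the 6 samples was most like that of the 4 genes chosen for this search were found by the root mean square difference of log2 CPM after centring each gene on its mean, among 13903 tested genes with a symbol. For CDH2 they were DNAJC9 (0.03) and TMEM65 (0.04), and for VIM RRP7A (0.04) and ADAT1 (0.04). CDH1 was most like CBX3P2 (0.10) and AIDA (0.10), and ZEB1 was most like LRIG3 (0.12) and PLEKHB2 (0.13). These are descriptions over 6 libraries that all genes share.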

How the data were processed

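RNA-seq of 6 PANC-1 samples, 3 si-NC and 3 si-METTL16, was used, with groups and replicate numbers from the sample titles. For each gene the authors deposited the raw count, and these summed to between 15725298 and 18054436 per sample. They also deposited FPKM values, which equal the count divided by a gene length and by the sample total. The implied length differed between samples by at most 0.0438%, and exceeded the span of the locus for 6.67% of the counted genes. Per the labels' processing notes, HISAT2 2.0.4, StringTie 1.3.0 and GRCh38 were used; the counting program, annotation release and use of strand were not given in the sources used here. The 27 gene symbols that had turned into dates were restored from gene identifiers.

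The 10 genes and all lists were chosen with earlier results of these data known. The text names the 10 genes and METTL16, from each list the 3 tested genes with the highest mean FPKM and the 2 highest and 2 lowest called changes, and for CDH1, CDH2, VIM and ZEB1 the 2 genes of most similar profile; markers of cell types were also fixed by name, and some genes so chosen are not reported here.

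Counts were filtered with filterByExpr (minimum count 10, minimum total 15, 15089 genes), scaled by TMM and tested in R 4.3.3 with the quasi-likelihood functions of edgeR 4.0.16 (glmQLFit, glmQLFTest). P-values were adjusted by Benjamini-Hochberg, with 0.05 as the threshold. Because the files hold counts, a count test was the main one, and limma, which the study names, was an alternative. Standard errors were derived from each log2 fold change and its F value. The common biological coefficient of variation was 16.5%. Limits from a count of 0 cover counting error only, and p-values measure the spread between cultures of 1 cell line. Gene positions were copied from the deposited table, and for 2 of the 10 genes GENCODE v44 gives identical ends. Promoters and microRNAs came from RefSeq tables (GRCh38.p14) and 3′ UTRs from GENCODE v44. The alternatives were the replicate block, each sample left out, other filters and thresholds, DESeq2 1.42.0, limma 3.58.1 on voom values and on log2(FPKM + 1) and log2(FPKM + 0.1) for genes averaging 1 FPKM or more, TPM and, added after seeing the data, CPM per kilobase of the MANE Select transcript.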

Additional observations from a re-analysis of the deposited data

How the results depend on the processing

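CDH1 and CDH2 were past the threshold under all 15 alternatives and SNAI2 under all 13 that could test it (the limma fits on FPKM leave out SNAI2 and ZEB2, whose mean FPKM was under 1); the log2 fold change of CDH1 ranged from -1.27 to -0.57. The replicate numbers were not taken to pair the samples, because the deviations of same-numbered samples correlated at only 0.025, 0.037 and 0.030. The mean of -0.015 for different numbers follows from centring each group on its own mean and is no separate reference. With the replicate block, 5013 genes were called, 4731 of them among the 5418 called without it; EPCAM passed (0.45, adjusted p = 0.047), so 4 of the 10 genes were called instead of 3, and 3 SNAI1 turnover genes were called instead of 5. DESeq2's Wald test called ZEB1 (0.64). At an adjusted p under 0.01, 3035 genes were called. With library totals instead of TMM, the split of calls became 2621 higher and 2805 lower, from 2780 and 2638. Both limma fits on FPKM called 1 epithelial regulator (of 5 tested) and 1 antisense gene (of 1 tested), where fewer genes pass the FPKM minimum; with no filter on low genes 3 SNAI1 turnover genes were called, and the cause was not tested.

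Leaving out 1 sample at a time gave 4159 to 4526 called genes and 3 of the 10 genes each time. The ranges were 9 to 13 for junction genes, 1 to 3 for epithelial regulators, 2 to 4 for SNAI1 turnover genes, -0.017 to 0.194 for the log2 fold change of VIM and -0.21 to 0.80 for the ratio of ZEB1 to ZEB2. VIM reversed to -0.017 and that ratio to -0.21 without si-NC replicate 1; VIM was called in none of its 15 alternatives.

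Levels depend on the unit. TPM was FPKM rescaled by a common factor within each sample, so it kept the order and the ratios of the genes. The si-NC means in TPM were 6.54 for CDH1, 73.5 for CDH2, 7.18 for EPCAM, 727 for VIM, 0.0453 for FN1, 5.50 for ZEB1, 0.124 for ZEB2, 19.1 for SNAI1 and 1.19 for SNAI2. In CPM per kilobase of the MANE Select transcript, a scale chosen after seeing the data, they were 4.95, 29.5, 5.01, 841, 0.0418, 4.66 and 0.180 for the first 7 of these and 1.01 for SNAI2.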
